A study of Mus musculus with 9 samples.

Results

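Collagen chain genes are the genes named Col, a type number, the letter a and a chain number, and 43 of the 17846 genes listed for these mouse livers carried such a symbol. RefSeq holds 44 symbols of that form, and the remaining gene, Col9a1, was not analysed here. Their RNA was measured by sequencing of whole liver from 9 male wild-type mice of the strain given as C57/BL in the labels and C57BL/6 in the methods, with 1 library per mouse. Control mice were sedentary on normal chow, NASH mice were sedentary on the Ath diet, an atherogenic diet with cholesterol and cholate, for 20 weeks, and NASH+Exercise mice (EXE+Ath diet in the labels) had 12 weeks of Ath diet and then 8 weeks of treadmill running at 12 m/min for 1 hour a day on 5 days a week. The sources used here do not state whether the NASH+Exercise mice stayed on the Ath diet during the running weeks. Each group had 3 mice, and the running or sedentary period began at 20 weeks of age. The mice are named by their group and label number, Control 3, 4 and 29, NASH 5, 19 and 20, and NASH+Exercise 8, 18 and 22. All comparisons rest on the same 9 mice, so that NASH against Control and NASH+Exercise against NASH share the NASH mice, and there was no group that ran on normal chow.

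Collagens are proteins of the extracellular matrix in which 3 alpha chains wind into a triple helix, and each chain has its own gene. Fibrillar chains are those of types I, II, III, V, XI, XXIV and XXVII, and types I, III and V form the banded fibrils of liver scar tissue. Type IV chains form the mesh of basement membranes, and type VI chains form beaded filaments beside cells. FACIT chains bind to the surface of fibrils, multiplexins (types XV and XVIII) sit in basement membrane zones, and transmembrane chains stay anchored in the cell that makes them. In the injured liver, fibrillar collagen is made mainly by activated stellate cells and portal fibroblasts, while hepatocytes are the main liver source of type XVIII.

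Levels of genes are compared with each other in TPM (transcript share, which is scaled by transcript length), and groups are compared per gene in CPM after TMM (read counts scaled to a common library total and libraries by the trimmed mean of M-values). Calls required an absolute log2 fold change above 1 and an adjusted p under 0.05, both from the edgeR quasi-likelihood test with Benjamini-Hochberg adjustment over 13619 genes. The libraries held 20085976 to 22495408 estimated reads on genes. Hepatocyte markers summed to 74184 to 109000 TPM in each of the 9 livers, and skeletal muscle markers to at most 0.27 TPM. At this depth 29 of the 43 collagen genes had enough reads to be tested. The 14 others are Col2a1, Col11a1, Col24a1, Col6a4, Col6a5, Col9a2, Col9a3, Col19a1, Col22a1, Col8a2, Col10a1, Col17a1, Col25a1 and Col28a1, none of which had more than 15 reads in any mouse. With no filter on low counts edgeR called none of the 14 in any comparison, and the smallest adjusted p was 0.0760, for Col8a2 in NASH against Control (log2 fold change 1.75 ± 0.69). Col8a2, a network chain like Col8a1, had 4, 1 and 1 reads in the Control mice, 9, 11 and 8 in the NASH mice and 6, 1 and 4 in the NASH+Exercise mice, so that every NASH mouse was above every Control mouse.

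The sequence before the transcription start is shown for the 2 fibrillar chain genes with a RefSeq promoter entry among the 3 with the largest increase in NASH liver, Col1a2 and Col3a1, and for Col18a1, the chain gene with the highest level, which has 2 starts. Of the 43 members, 34 matched a RefSeq promoter entry, in 36 windows. Each sequence is the 250 bases upstream of the start (RefSeq, build GRCm38.p6), written 5′ to 3′ on the strand of the gene. Capitals mark the GC box GGGCGG, the CCAAT box and the TATA sequence TATAAA on either strand. The windows are chr6:4505368-4505617 (plus strand) for Col1a2, chr1:45311288-45311537 (plus strand) for Col3a1, and on the minus strand chr10:77166531-77166780 for the upstream and chr10:77113706-77113955 for the downstream start of Col18a1.
Col1a2: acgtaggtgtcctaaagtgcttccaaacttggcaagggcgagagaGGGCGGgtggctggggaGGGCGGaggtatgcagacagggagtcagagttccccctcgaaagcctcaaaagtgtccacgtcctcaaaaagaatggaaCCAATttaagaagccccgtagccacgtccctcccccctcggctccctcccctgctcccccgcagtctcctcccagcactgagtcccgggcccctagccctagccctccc
Col3a1: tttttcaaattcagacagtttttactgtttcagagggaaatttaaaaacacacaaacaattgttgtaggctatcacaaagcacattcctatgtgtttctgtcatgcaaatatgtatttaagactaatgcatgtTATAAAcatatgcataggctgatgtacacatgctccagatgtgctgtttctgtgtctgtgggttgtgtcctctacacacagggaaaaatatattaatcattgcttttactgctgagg
Col18a1, upstream start: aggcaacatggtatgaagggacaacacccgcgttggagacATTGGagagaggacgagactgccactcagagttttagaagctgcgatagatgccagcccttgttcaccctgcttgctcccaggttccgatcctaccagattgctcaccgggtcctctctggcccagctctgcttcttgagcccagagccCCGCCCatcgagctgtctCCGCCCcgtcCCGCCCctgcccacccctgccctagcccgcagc
Col18a1, downstream start: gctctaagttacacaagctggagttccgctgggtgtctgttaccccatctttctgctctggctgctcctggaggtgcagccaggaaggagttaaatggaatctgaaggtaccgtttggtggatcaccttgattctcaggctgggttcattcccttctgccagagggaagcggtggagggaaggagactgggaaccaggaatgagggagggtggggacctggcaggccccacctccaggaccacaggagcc

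The 2 fibrillar windows differed in composition, with 62.0% G or C and 2 GC boxes before Col1a2 against 35.2% G or C and no GC box before Col3a1. The GC box stood in 22 of the 36 collagen windows (61.1%) and in 32.7% of all 32851 RefSeq windows of this length. CCAAT stood in 33.3% of the collagen windows against 33.9% of all windows, and TATAAA in 13.9% against 12.4%. The upstream window of Col18a1 held 3 GC boxes and the downstream window none, and the deposited values are per gene, so the use of each start was not measured. These matches describe letters only.

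By level per length, the collagen of the control liver was nearly all Col18a1, whose product ends in the fragment endostatin. Col18a1 stood at 267, 308 and 262 TPM in the Control mice, 369, 321 and 322 TPM in the NASH mice, and 308, 284 and 261 TPM in the NASH+Exercise mice. Its share of the summed TPM of all 43 genes was 84.0% ± 4.24 (SD, n = 3) in the Control livers, 61.2% ± 5.05 in the NASH livers and 72.5% ± 3.44 in the trained livers. The other 42 genes together stood at 52.8 ± 12.4 TPM (Control), 214 ± 33.5 TPM (NASH) and 109 ± 23.7 TPM (NASH+Exercise), with no overlap between any of the 3 groups. These sums are descriptions of level and were not tested.

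The order of the genes by TPM differed between the groups. In Control, Col18a1 was followed by Col5a3 (14.2 ± 4.72 TPM), Col14a1 (6.06 ± 2.44) and Col27a1 (5.91 ± 3.27). The steps from Col18a1 to Col5a3 and from Col5a3 to Col14a1 were free of overlap between mice, while Col14a1 and Col27a1 overlapped. Col1a1 stood at rank 16 in Control, at 0.86 ± 0.075 TPM. In NASH the places after Col18a1 were taken by Col3a1 (34.2 ± 9.87 TPM), Col1a1 (29.1 ± 6.54), Col5a3 (27.7 ± 1.5) and Col1a2 (23.4 ± 6.02), and each neighbouring pair among these 4 overlapped. In NASH+Exercise the order after Col18a1 was Col5a3 (17.1 ± 8.38 TPM), Col14a1 (14.0 ± 2.86), Col3a1 (13.4 ± 5.30) and Col1a1 (9.98 ± 4.10), again with overlap between neighbours among these 4.

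**Figure D1:**
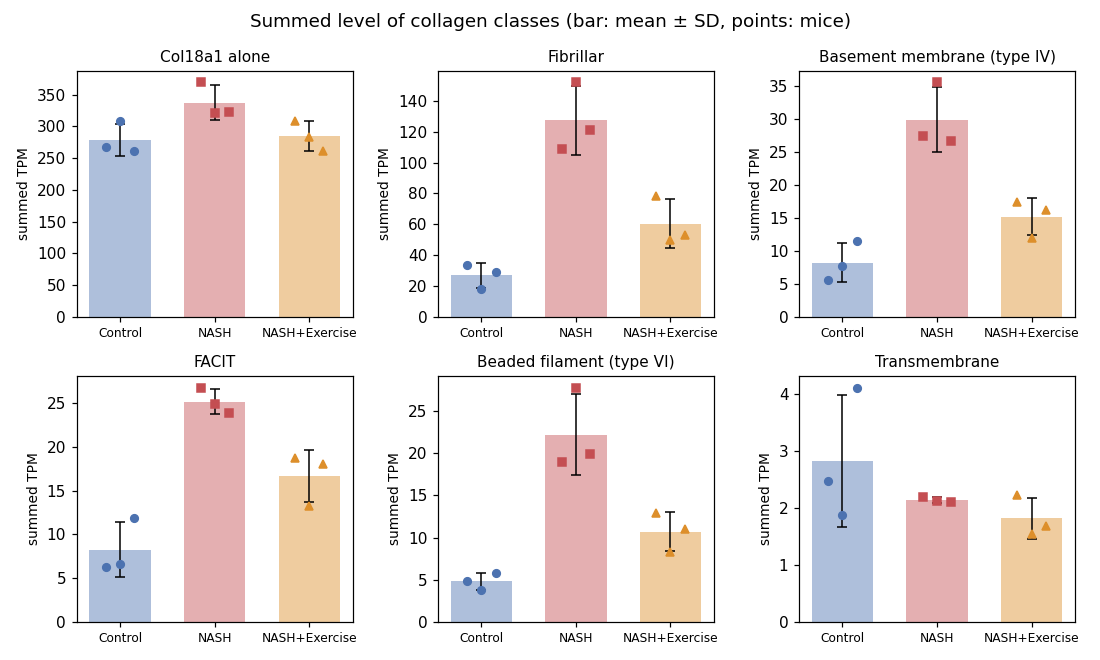
Summed TPM of collagen classes in each mouse (points), with bars for the mean and error bars for the SD of 3 mice in Control, NASH and NASH+Exercise, on a separate linear axis per class. The fibrillar sum averaged 26.8, 127 and 60.4 TPM and the type IV sum 8.22, 29.9 and 15.2 TPM in the 3 groups, while the transmembrane sum averaged 2.82, 2.14 and 1.82 TPM.

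Each class can also be given as a share of the summed TPM left after Col18a1, in the order Control, NASH and NASH+Exercise. Fibrillar chains made up 50.5% ± 9.70, 59.3% ± 1.87 and 55.1% ± 3.69 of that remainder. Type IV chains made up 15.8% ± 5.01, 14.0% ± 0.585 and 14.0% ± 1.44, and type VI chains 9.12% ± 0.316, 10.3% ± 0.606 and 9.83% ± 0.645. Transmembrane chains made up 5.23% ± 1.03, 1.02% ± 0.162 and 1.67% ± 0.0612, with no overlap between the groups.

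The comparison of NASH with Control asked which collagen genes the diet moved. Called higher in NASH were 16 of 29 tested members (55.2%), against 15.3% of all tested genes, and 0 called lower, against 3.03%. In the same edgeR fit, an adjusted p under 0.05 with no fold limit held for 16 higher members, against 21.2% of all tested genes, and for 2 lower members, Col13a1 and Col20a1, against 14.4%. At an unadjusted p under 0.05, 3 members were lower, against 19.9%. The log2 fold change was above 0 in 23 members, as in 51.0% of all tested genes, and its median was 1.39 over the members and 0.01 over all tested genes. For 18 members every NASH mouse was above every Control mouse, which held for 27.4% of all tested genes. For 3 members every NASH mouse was below every Control mouse, which held for 22.2%. In whole liver, more or fewer cells of a type and more or less RNA per cell cannot be told apart.

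The 4 largest called changes were in fibrillar genes. Called higher were 5 of the 8 tested fibrillar genes, with a class median log2 fold change of 2.0. Col1a1, which encodes the main chain of type I collagen, stood at 3.11, 4.11 and 3.32 CPM in Control, 68.5, 98.4 and 94.7 CPM in NASH, and 44.5, 20.6 and 45 CPM in NASH+Exercise. The groups did not overlap, and the log2 fold change from Control to NASH was 4.63 ± 0.32 (SE, adjusted p = 8.66e-06), the largest of the 29 members. Col1a2, the partner chain of Col1a1 in type I collagen, stood at 4.72, 6.56 and 6.33 CPM in Control, 50.1, 74.0 and 60.5 CPM in NASH, and 36.6, 17.1 and 33.8 CPM in NASH+Exercise. Its log2 fold change to NASH was 3.39 ± 0.30 (adjusted p = 2.64e-05).

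Col3a1, the single chain of type III collagen, which forms fine reticular fibres, stood at 7.84, 8.06 and 9.95 CPM in Control, 81.4, 119 and 86.1 CPM in NASH, and 55.9, 27.0 and 55.4 CPM in NASH+Exercise. Its log2 fold change to NASH was 3.47 ± 0.29 (adjusted p = 2.17e-05). In Col1a1, Col1a2 and Col3a1 alike, NASH 19 was the highest mouse and NASH+Exercise 18 the lowest of the trained mice. Col3a1 shares 141 exon bases with the annotated gene Gm47302 on the same strand, and the reads of the 2 cannot be told apart there.

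The type V chains, which nucleate and thin fibrils, did not move together. Col5a2 stood at 1.34, 0.834 and 2.91 CPM in Control, 8.06, 12.9 and 11.8 CPM in NASH, and 6.46, 8.59 and 8.38 CPM in NASH+Exercise, a log2 fold change to NASH of 2.67 ± 0.37 (adjusted p = 0.000384). Col5a1 stood at 6.28, 5.17 and 8.57 CPM in Control, 16.8, 16.5 and 17.4 CPM in NASH, and 9.47, 8.17 and 14.3 CPM in NASH+Exercise, a log2 fold change to NASH of 1.34 ± 0.23 (adjusted p = 0.00126). Col5a3, the type V chain with the highest level per length, stood at 75.8, 43.7 and 55.6 CPM in Control, 91.0, 74.2 and 91.9 CPM in NASH, and 78.2, 79.6 and 32.0 CPM in NASH+Exercise. Its groups overlapped in CPM, and the log2 fold change to NASH was 0.55 with a 95% confidence interval from -0.17 to 1.27. In TPM the NASH mice were all above the Control mice (log2 fold change 0.97 in log2(TPM + 1), limma). The exons of Col5a1 overlap those of 2 annotated genes on the other strand, and the sources used here do not say whether reads were counted by strand.

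The remaining tested fibrillar genes, Col11a2 and Col27a1, were not called, at log2 fold changes of 0.37 and -0.60 (adjusted p = 0.381 and 0.121). The genes of the type I, III and V chains are spread over chromosomes 1, 2, 6, 9 and 11 in GRCm38.p6. Col3a1 (chr1:45311538-45349706) and Col5a2 (chr1:45374331-45503282) are neighbours with 24624 bases between them, and both rose.

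**Figure D2:**
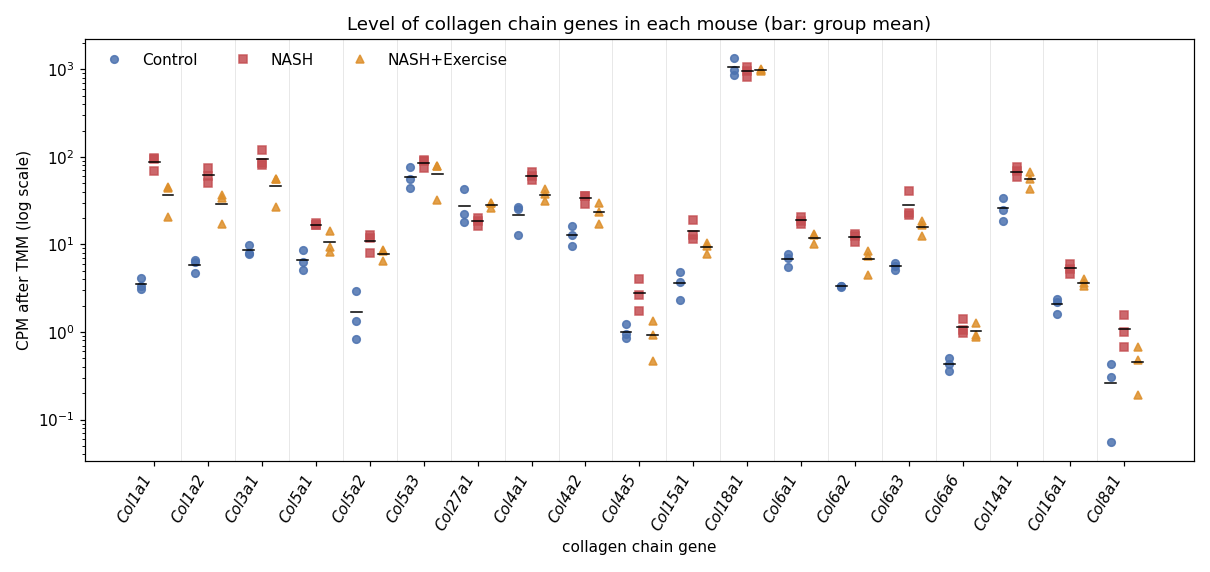
CPM after TMM on a log axis for the 16 collagen genes called in any comparison and for Col5a3, Col18a1 and Col27a1, with 1 point per mouse and a black bar at each group mean. Col1a1 runs from 3.11 to 4.11 CPM in Control and from 68.5 to 98.4 CPM in NASH, with NASH+Exercise between them at 20.6 to 45 CPM, while Col18a1 overlaps in all 3 groups.

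The type IV chains of the ordinary basement membrane rose with smaller estimates than those of types I and III, with 95% confidence intervals of 0.94 to 2.04 for Col4a1 and 0.89 to 1.89 for Col4a2 against 2.73 to 4.05 for Col1a2 and 2.82 to 4.12 for Col3a1. Col4a1 and Col4a2, which assemble together into the most common type IV network, are transcribed head to head on chromosome 8, with 85 overlapping bases between the RefSeq genes. Col4a1 stood at 12.7, 25.7 and 26.5 CPM in Control, 53.8, 67.2 and 61.3 CPM in NASH, and 37.4, 31.6 and 42.6 CPM in NASH+Exercise, a log2 fold change to NASH of 1.49 ± 0.25 (adjusted p = 0.00120). Col4a2 stood at 9.55, 12.7 and 16.1 CPM in Control, 35.7, 35.8 and 29.1 CPM in NASH, and 23.4, 17.3 and 29.4 CPM in NASH+Exercise, a log2 fold change to NASH of 1.39 ± 0.22 (adjusted p = 0.000900). For both genes the NASH mice were all above the Control mice.

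The other type IV chains, known from specialised basement membranes such as that of the kidney glomerulus, were near the limit of detection. Col4a5 stood at 0.859, 0.945 and 1.22 CPM in Control, 2.66, 4.07 and 1.74 CPM in NASH, and 1.35, 0.472 and 0.926 CPM in NASH+Exercise, a log2 fold change to NASH of 1.48 ± 0.41 (adjusted p = 0.0168). This call was lost without Control 3 (adjusted p = 0.0610) or without NASH 19 (adjusted p = 0.0794). Col4a6, its neighbour on the X chromosome, had at most 3 reads in every Control mouse and was at least 4.25-fold higher in NASH when set against a floor of 3 reads per library, without passing the test (adjusted p = 0.0593). NASH 19 held most of its reads in the NASH group (10, 31 and 10 reads), and without that mouse the bound was 2.62-fold. Col4a3 and Col4a4 had log2 fold changes of 0.16 and 0.31 and were not called.

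Of the multiplexins, Col15a1 rose and Col18a1 did not pass the test. Col15a1, a chain of the basement membrane zone of vessels, stood at 3.76, 4.84 and 2.35 CPM in Control, 11.5, 18.8 and 12.8 CPM in NASH, and 10.5, 7.74 and 9.70 CPM in NASH+Exercise. The 3 groups did not overlap, and the log2 fold change to NASH was 1.98 ± 0.27 (adjusted p = 0.000338). Col18a1 stood at 990, 1347 and 873 CPM in Control, 1077, 822 and 946 CPM in NASH, and 949, 983 and 1002 CPM in NASH+Exercise. The groups overlapped in CPM, and the log2 fold change to NASH was -0.17 with a 95% confidence interval from -0.58 to 0.23. Its sign turned with the scaling, to 0.19 when counts were scaled by library size only and to 0.28 in log2(TPM + 1), and in TPM the NASH mice were all above the Control mice.

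All 4 tested type VI genes rose. Col6a3, the long chain of type VI collagen whose cleaved end is endotrophin, stood at 5.10, 6.12 and 5.61 CPM in Control, 22.6, 40.4 and 21.5 CPM in NASH, and 16.8, 12.6 and 18.6 CPM in NASH+Exercise. Its log2 fold change to NASH was 2.33 ± 0.26 (adjusted p = 9.49e-05), and the 3 groups did not overlap. Col6a1 and Col6a2, the short chains of the same filament, lie 85161 bases apart on chromosome 10.

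Col6a1 stood at 7.03, 5.50 and 7.86 CPM in Control, 17.2, 20.8 and 18.5 CPM in NASH, and 13.1, 10.1 and 12.9 CPM in NASH+Exercise, a log2 fold change to NASH of 1.47 ± 0.17 (adjusted p = 0.000104). Col6a2 stood at 3.27, 3.39 and 3.32 CPM in Control, 10.8, 12.4 and 13.2 CPM in NASH, and 7.38, 4.44 and 8.43 CPM in NASH+Exercise, a log2 fold change to NASH of 1.86 ± 0.23 (adjusted p = 0.000145). Neither gene overlapped between any 2 groups. Col6a6, an alternative long chain, stood at 0.429, 0.50 and 0.357 CPM in Control, 1.41, 1.05 and 0.978 CPM in NASH, and 0.917, 1.27 and 0.877 CPM in NASH+Exercise, a log2 fold change to NASH of 1.41 ± 0.33 (adjusted p = 0.00751).

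The fibril-associated chains split. Col14a1, which binds fibrils and is known from fibroblasts and stellate cells, stood at 18.7, 25 and 33.8 CPM in Control, 76.2, 59.2 and 69.0 CPM in NASH, and 56.4, 43.1 and 67.0 CPM in NASH+Exercise, a log2 fold change to NASH of 1.40 ± 0.22 (adjusted p = 0.000885). Col16a1, a fibril-associated chain of skin and cartilage, stood at 1.61, 2.22 and 2.40 CPM in Control, 4.65, 5.98 and 5.31 CPM in NASH, and 3.36, 3.59 and 4.0 CPM in NASH+Exercise, a log2 fold change to NASH of 1.35 ± 0.21 (adjusted p = 0.000742). For both, every NASH mouse was above every Control mouse, and Col12a1, a FACIT chain of tendon and other dense tissue, was not called at a log2 fold change of -0.06. Col20a1 stood at 4.62, 5.34 and 5.56 CPM in Control, 4.07, 3.14 and 2.81 CPM in NASH, and 3.84, 4.2 and 5.46 CPM in NASH+Exercise, a log2 fold change to NASH of -0.63 ± 0.21 (adjusted p = 0.0415) that did not reach the fold limit. Scaled by library size only, it stood at -0.28 (adjusted p = 0.324).

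Among the small classes, Col8a1, a short network chain known from vessel walls, was called higher. It stood at 0.429, 0.0556 and 0.306 CPM in Control, 0.997, 1.55 and 0.680 CPM in NASH, and 0.480, 0.189 and 0.682 CPM in NASH+Exercise, a log2 fold change to NASH of 2.0 ± 0.60 (adjusted p = 0.0246). The call was lost without Control 4 (adjusted p = 0.0691) or without NASH 19 (adjusted p = 0.0940). Col13a1, a transmembrane chain of cell adhesion sites, went the other way, at 5.15, 4.56 and 7.19 CPM in Control, 3.41, 2.76 and 3.15 CPM in NASH, and 3.88, 2.97 and 3.41 CPM in NASH+Exercise. Its log2 fold change to NASH was -0.86 ± 0.22 (adjusted p = 0.0117), with all NASH mice below all Control mice in CPM though not in TPM. Without Control 4 it passed the fold limit at -1.01, and scaled by library size only it stood at -0.54 (adjusted p = 0.145).

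Col23a1, the other tested transmembrane chain, stood at 0.912, 0.667 and 0.816 CPM in Control, 1.08, 0.854 and 0.723 CPM in NASH, and 0.480, 0.708 and 0.439 CPM in NASH+Exercise, without a call. Col26a1, which is outside the named classes, stood at 0.751, 1.45 and 1.28 CPM in Control, 1.12, 1.44 and 1.66 CPM in NASH, and 1.61, 1.56 and 1.36 CPM in NASH+Exercise, also without a call. In limma on log2(TPM + 1), which understates changes of low genes, Col4a5, Col6a6 and Col8a1 fell inside the fold limit at 0.59, 0.26 and 0.39. Col7a1, the chain of the anchoring fibrils of skin, had a log2 fold change of -1.21 ± 0.49 that did not pass the test (adjusted p = 0.0798).

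Exons of some of these genes overlap those of other annotated genes, where reads may not be separable. Col20a1 shares 79 bases with BX649560.1 on the same strand. On the opposite strand Col4a3 shares 563 with C430014B12Rik, Col6a6 shares 63 with Gm38314, Col4a2 shares 43 with Gm15419 and 22 with Col4a1, and Col15a1 shares 14 with Gm12426.

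**Figure D3:**
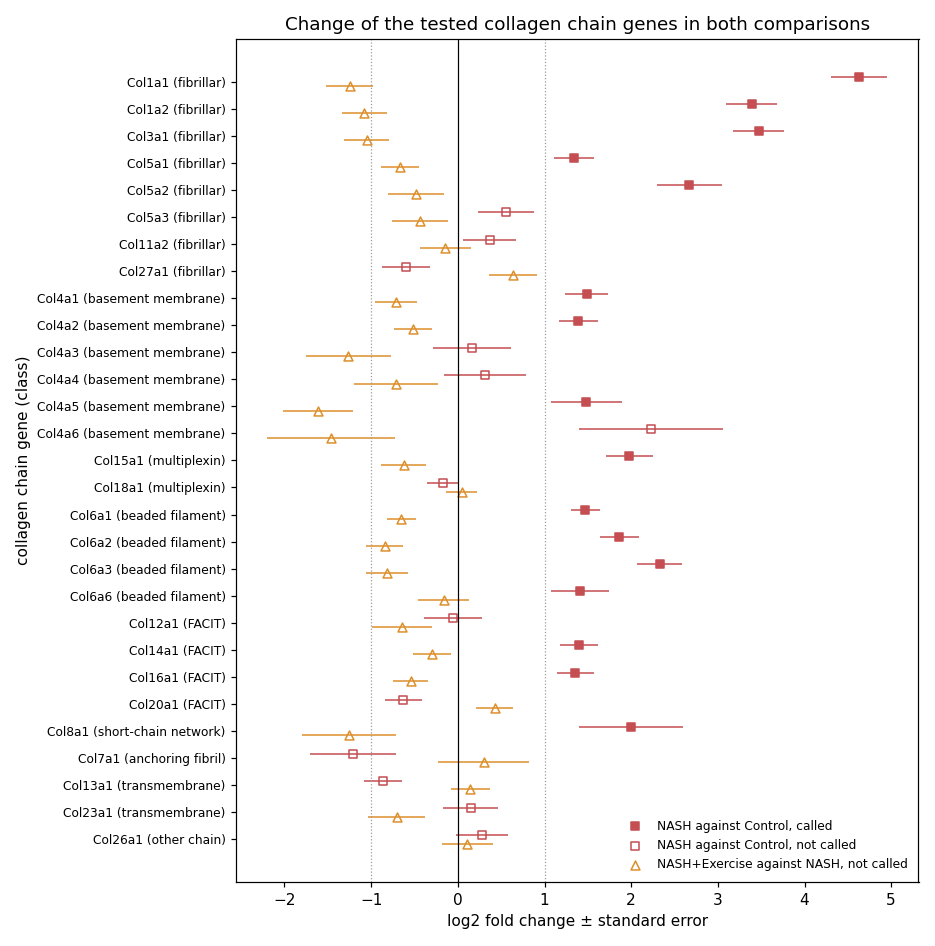
Log2 fold change (point) and standard error (bar) of the 29 tested collagen genes for NASH against Control (squares) and NASH+Exercise against NASH (triangles), filled where the gene was called, with dotted lines at the fold limit. The 16 filled squares run from 1.34 for Col5a1 to 4.63 for Col1a1, no triangle is filled, and the 2 comparisons share the NASH mice.

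The comparison of NASH+Exercise with NASH asked whether the same genes differed in the trained mice. Of the 29 tested members, 0 were called in either direction by edgeR, against 0.103% of all tested genes called higher and 0.0367% called lower. At an unadjusted p under 0.05, 14 members were lower, against 10.7% of all tested genes, and 1 was higher, against 4.60%. DESeq2, the tool named in the study's methods, called 4 members lower, against 0.936% of the genes it tested. They were Col1a1, Col1a2, Col3a1 and Col4a5. In limma on log2(TPM + 1), 2 were called lower, Col1a1 and Col1a2, against 0.484% of the genes tested there. The smallest adjusted p in the edgeR test was 0.122, for Col1a1.

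The estimates lay mostly below 0. The log2 fold change was below 0 in 23 of the 29 members (79.3%), as it was in 54.9% of all tested genes, and its median was -0.64 over the members and -0.03 over all tested genes. For 15 members (51.7%) every trained mouse was below every NASH mouse, which held for 14.9% of all tested genes. For 1 member, Col27a1, every trained mouse was above, which held for 9.16%. Both comparisons use the NASH mice, and their estimates are given side by side only.

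Among the fibrillar genes, Col1a1 had a log2 fold change of -1.25 ± 0.27 (adjusted p = 0.122), with a 95% confidence interval from -1.85 to -0.64. Col1a2 stood at -1.08 ± 0.26 (adjusted p = 0.135) and Col3a1 at -1.05 ± 0.26 (adjusted p = 0.136). In all 3 genes each trained mouse was below each NASH mouse and above each Control mouse. Col5a1 stood at -0.67 ± 0.22 without overlap, while Col5a2 at -0.48 and Col5a3 at -0.44 overlapped with NASH.

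Col27a1, a fibrillar chain of cartilage and several epithelia, is named because of its values. It stood at 43.5, 17.9 and 22.1 CPM in Control, 16.2, 20.2 and 18.7 CPM in NASH, and 26.1, 29.9 and 29.7 CPM in NASH+Exercise. Its log2 fold change from NASH to NASH+Exercise was 0.63 ± 0.28 (adjusted p = 0.314), and 1 Control mouse was above all the trained mice.

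Of the type IV chains, Col4a5 had the lowest estimate of the 29 members, at -1.61 ± 0.41 (adjusted p = 0.136), from fewer reads than Col4a1, at -0.71 ± 0.24 (adjusted p = 0.229), and Col4a2, at -0.52 ± 0.22 (adjusted p = 0.294). The type VI chains Col6a1, Col6a2 and Col6a3 stood at -0.65 ± 0.16, -0.85 ± 0.21 and -0.82 ± 0.24, with no overlap between trained and NASH mice, and Col6a6 stood at -0.16 with overlap. Col15a1 stood at -0.63 ± 0.26 and Col16a1 at -0.54 ± 0.20, both without overlap, and Col14a1 at -0.30 ± 0.22 with overlap. Col18a1 stood at 0.04 with a 95% confidence interval from -0.36 to 0.45, turned to -0.15 when scaled by library size only, and in TPM each trained mouse was below each NASH mouse.

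The trained mice were also set against Control. NASH+Exercise against Control gave 9 of 29 members called higher (31.0%), against 10.4% of all tested genes, and 0 called lower, against 3.07%. The 9 were Col1a1, Col1a2, Col3a1 and Col5a2 among the fibrillar genes, Col15a1, Col6a2, Col6a3, Col6a6 and Col14a1. At an adjusted p under 0.05 alone, 13 were higher, against 15.6% of all tested genes, and 1, Col13a1, was lower (log2 fold change -0.72 ± 0.22, adjusted p = 0.0358), against 9.58%. At an unadjusted p under 0.05 the same edgeR fit gave 1 lower member, against 15.6%. DESeq2 called 7 members higher, against 8.48% of the genes it tested, and limma on log2(TPM + 1) called 5 higher, against 5.63%.

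Col1a1 stayed at a log2 fold change of 3.38 ± 0.31 over Control (adjusted p = 6.68e-05), Col3a1 at 2.42 ± 0.28 (adjusted p = 0.000234) and Col1a2 at 2.31 ± 0.29 (adjusted p = 0.000334). Col5a2 stood at 2.19 ± 0.37 and Col6a3 at 1.51 ± 0.26. Every trained mouse was above every Control mouse in 13 members, which held for 21.5% of all tested genes, and below in 2 members, Col13a1 and Col4a3, which held for 17.0%. None of the 6 type IV genes was called, with Col4a1 at 0.78 ± 0.25 and Col4a2 at 0.87 ± 0.22 past the adjusted p but inside the fold limit, and Col4a5 at -0.13 ± 0.44. The call of Col6a2 (log2 fold change 1.02) was lost without Control 29 (0.996), NASH+Exercise 8 (0.95) or NASH+Exercise 22 (0.83), and with RLE factors (0.998), DESeq2 (0.996) or limma (0.73). That of Col6a6 (1.25) was lost without Control 3 (adjusted p = 0.0620), Control 29 (adjusted p = 0.0748) or NASH+Exercise 18 (adjusted p = 0.0784), and with DESeq2 (adjusted p = 0.127) or limma (0.16). The calls of Col15a1 (1.35) and Col6a3 (1.51) were lost with limma only, at 0.97 and 0.999. That of Col14a1 (1.10) was lost without Control 3 (0.91) or NASH+Exercise 22 (0.94). Col4a2 was called without Control 29 or without NASH+Exercise 18, at 1.05 each.

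The 16 genes called in NASH can be followed through all 9 mice. In 15 of them the mean of the trained mice lay between the Control and NASH means, Col4a5 being the exception. These genes were chosen for high values in the same NASH mice, and of all 2082 genes called higher in NASH the trained mean lay between in 90.7%. In 9 of the 16, Col1a1, Col1a2, Col3a1, Col4a1, Col15a1, Col6a1, Col6a2, Col6a3 and Col16a1, each trained mouse lay between all Control and all NASH mice, as in 37.3% of the 2082. NASH 19 was the highest of the 9 mice in 12 of the 16 genes, and NASH+Exercise 18 the lowest trained mouse in 13 of them. Leaving out any single mouse gave 14 to 17 called members for NASH against Control, 0 in each case for NASH+Exercise against NASH, and 7 to 9 for NASH+Exercise against Control.

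The ratio between chains of 1 molecule compares genes within a library, where scaling between libraries has no part, and is given as a description in TPM. Type I collagen is mostly built from 2 Col1a1 chains and 1 Col1a2 chain. The ratio of Col1a1 to Col1a2 was 0.58, 0.55 and 0.46 in Control, 1.2, 1.17 and 1.38 in NASH, and 1.07, 1.06 and 1.17 in NASH+Exercise. All NASH and NASH+Exercise livers were thus above all Control livers. The ratio of Col3a1 to Col1a1 ran the other way, at 2.67, 2.1 and 3.20 in Control, 1.27, 1.29 and 0.97 in NASH, and 1.34, 1.39 and 1.31 in NASH+Exercise.

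The type IV pair kept its ratio within the spread. Col4a1 to Col4a2 averaged 1.63 ± 0.35, 1.79 ± 0.30 and 1.59 ± 0.19 in the order Control, NASH and NASH+Exercise. Col5a1 to Col5a2 averaged 3.62 ± 1.28, 1.30 ± 0.33 and 1.11 ± 0.31, and Col6a3 to Col6a1 averaged 0.36 ± 0.092, 0.64 ± 0.18 and 0.57 ± 0.048. Between the fibrillar and basement membrane classes, Col1a1 to Col4a1 averaged 0.20 ± 0.070, 1.59 ± 0.16 and 1.08 ± 0.31.

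**Figure D4:**
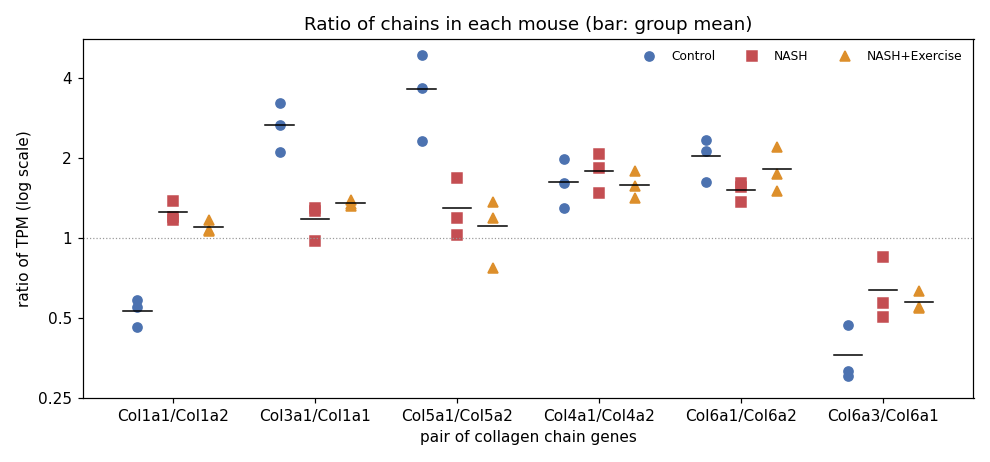
Ratio of TPM between pairs of collagen genes in each mouse (points) with the group mean (black bar), on a log axis with a dotted line at 1. Col1a1 to Col1a2 lies at 0.46 to 0.58 in the Control livers, 1.17 to 1.38 in those of NASH mice and 1.06 to 1.17 in those of trained mice, while Col4a1 to Col4a2 overlaps in all groups.

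Genes that build, cut and bind collagen were followed as lists of 99 genes in all, of which 85 were tested. For NASH against Control 35 were called higher (41.2%, against 15.3% of all tested genes) and 2 lower (all tested genes 3.03%). In the list for chain modification and folding, 5 of 23 tested genes were called higher (all tested genes 15.3%) and 0 lower, with a median log2 fold change of 0.26. Serpinh1, the collagen chaperone HSP47, rose by a log2 fold change of 2.30 ± 0.26 (adjusted p = 0.000104), Plod2, a lysyl hydroxylase of the collagen end regions, by 2.13 ± 0.36 (adjusted p = 0.00109), and Creb3l1, a transcription factor of collagen genes, by 1.69 ± 0.24 (adjusted p = 0.000393). The prolyl 4-hydroxylase genes P4ha1, P4ha2 and P4hb, which stabilise the helix, were not called, at 0.50, 0.31 and -0.12.

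The shares of all tested genes were 15.3% called higher and 3.03% lower. Of the procollagen cleavage list, 3 of 5 tested genes were called higher and 0 lower, with a median of 1.18. They were Pcolce (1.27 ± 0.18) and Pcolce2 (1.27 ± 0.35), which enhance removal of the end propeptide, and Adamts2 (1.18 ± 0.14), which removes the front propeptide. Bmp1, the enzyme that Pcolce enhances, was lower by adjusted p only (-0.92 ± 0.15, adjusted p = 0.00110). In the crosslinking list 4 of 6 were called higher, among them the lysyl oxidase genes Lox at 3.15 ± 0.41, Loxl1 at 2.13 ± 0.25 and Loxl3 at 1.21 ± 0.24.

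Beside the counts below stand the same shares of all tested genes, 15.3% called higher and 3.03% lower. Of the fibril regulators, 8 of 15 were called higher and 0 lower, with a median of 1.23. They were led by Tnc (tenascin C, 3.27 ± 0.41), Thbs1 (thrombospondin, 2.90 ± 0.54) and Lum (lumican, 2.18 ± 0.35). Of the collagen receptors, 4 of 9 were called higher and 0 lower, with a median of 0.81, led by Lair1 (an inhibitory receptor of leukocytes, 3.39 ± 0.41), Ddr1 (a receptor kinase, 2.71 ± 0.29) and Mrc2 (a receptor for collagen uptake, 2.46 ± 0.29). Of the degradation list, 8 of 11 were called higher and 0 lower, with a median of 2.1. Mmp12, an elastase of macrophages, rose by 7.48 ± 0.58, while Timp1, an inhibitor of matrix proteases, was at least 36.5-fold and Mmp8, a neutrophil collagenase, at least 7.52-fold higher, both against Control mice with at most 3 reads each.

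Of the partners of collagen in the basement membrane, 3 of 16 were called higher (all tested genes 15.3%) and 2 lower (all tested genes 3.03%), with a median of 0.64. Nid1, which links laminin to type IV collagen, rose by 2.32 ± 0.23 (adjusted p = 4.24e-05), and Lama2, a laminin chain, by 1.86 ± 0.31 (adjusted p = 0.00110). Nid2, in the same list, was lower by adjusted p only (-0.95 ± 0.28, adjusted p = 0.0219). The laminin chains Lama3 and Lamb3 fell by 1.85 and 2.69 on the log2 scale (adjusted p = 0.000162 and 0.000218).

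With training, 0 of the 85 list genes were called in either direction by edgeR. Of all tested genes it called 0.103% higher and 0.0367% lower. DESeq2 called 6 lower, against 0.936% of the genes it tested, and 1 higher, against 0.58%, and limma on log2(TPM + 1) called 1 lower, against 0.484%. The log2 fold change was below 0 in 72 of the 85, as in 54.9% of all tested genes, with a median of -0.42 against -0.03 over all. Serpinh1 stood at 4.13, 6.39 and 4.85 CPM in Control, 23.1, 25.7 and 26.8 CPM in NASH, and 24.0, 16.9 and 34.9 CPM in NASH+Exercise. Its trained and NASH mice overlapped (log2 fold change 0.00 ± 0.24). Lox stood at 0.483, 0.278 and 0.306 CPM in Control, 1.99, 4.73 and 2.89 CPM in NASH, and 1.31, 0.850 and 1.02 CPM in NASH+Exercise (-1.59 ± 0.35, adjusted p = 0.122), with each trained mouse below each NASH mouse. Against Control, 19 list genes (22.4%) were called higher in the trained mice, against 10.4% of all tested genes, and 2 lower, against 3.07%.

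Markers of cells that make or surround collagen are given beside these values, as counts called in NASH and as summed levels. Of all tested genes, 15.3% were called higher in NASH. Portal fibroblast markers (5 of 7 tested, all 5 called higher in NASH) summed to 6.55 to 7.04 TPM in the Control livers, 26.7 to 40.6 TPM in the NASH livers and 10.1 to 17.1 TPM in the trained livers, and Fbln2 stands both here and among the fibril regulators. Myofibroblast markers (3 of 5 tested called higher, Acta2 not among them) summed to 5.35 to 9.93, 23.5 to 33.1 and 11.5 to 20.3 TPM, and Lox and Timp1 stand in this list as well as in the lists above. Markers of quiescent stellate cells (1 of 9 called higher, Pdgfrb, near the 15.3% of all tested genes) summed to 120 to 216, 145 to 194 and 147 to 156 TPM. The part of these cells in the collagen values was not tested.

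Macrophage markers (6 of 6 called higher in NASH) summed to 30.0 to 57.5, 311 to 405 and 192 to 276 TPM in the same order, and neutrophil markers (3 of 4 called higher) to 4.9 to 8.5, 82.0 to 99.4 and 43.3 to 79.3 TPM. Cholangiocyte markers (3 of 5 called higher) summed to 26.2 to 34.5, 130 to 567 and 68.1 to 123 TPM, and the high value belongs to NASH 19, the mouse that was also highest in most collagen genes, through Spp1 at 341 CPM. Sinusoidal endothelial markers (1 of 7 called higher) summed to 65.4 to 132, 137 to 182 and 97.3 to 144 TPM, and vascular endothelial markers (1 of 5) to 13.4 to 22.4, 28.2 to 43.9 and 21.4 to 33.9 TPM. Both of these endothelial counts were near the share of all tested genes called higher, 15.3%. Of the hepatocyte markers 0 of 6 were called in NASH, with all 6 estimates below 0 and 2 at an adjusted p under 0.05. Cartilage markers stayed at 0.89 to 3.63 TPM and epidermis markers at 7.39 to 20.0 TPM over the 9 livers, with 0 called. The part of these cells in the collagen values was likewise not tested.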

How the data were processed

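Livers of 9 mice were sequenced, 3 per group. The authors deposited for each gene and mouse estimated counts of reads, not normalized and in part not whole numbers, together with FPKM, which the authors scaled to the library and to transcript length, and TPM, which the authors scaled to the same total in every library. FPKM was not used. The submitters' processing notes name HISAT2 2.1.0, Bowtie2 2.2.5, RSEM 1.2.8 and GRCm38.p6 without a role or order, and the strand setting is not given in the sources used here. One deposited file held all 9 mice, and 0 of the 428304 values it shared with the others differed. Symbols came from RefSeq by Entrez identifier (17728 matched, 13 more through GENCODE, 105 without a symbol), as did positions.

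Estimated counts were rounded and fitted in edgeR 4.0.16 (R 4.3.3) with filterByExpr by group (minimum 10, total 15), TMM and a robust quasi-likelihood model over the 9 mice, group being the only term, with 6 residual degrees of freedom and Benjamini-Hochberg adjustment over 13619 genes. The limits on adjusted p and fold change are those of the study's methods, which used them with DESeq2 and not edgeR. SE is the absolute log2 fold change divided by the root of F. Library totals were 20085976 to 22495408. Precision is limited by 3 mice per group and, for genes of few reads, by depth, and lower bounds against 3 reads cover counting error only.

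Alternatives were RLE factors, library size only, no filter beyond 1 count, a fit of the 2 groups compared, DESeq2 1.42.0, limma 3.58.1 on log2(TPM + 1) for genes of mean TPM of 0.1 or more, no fold limit, and each mouse left out. The fits were also run on simulated counts drawn with the edgeR spread, with changes placed at random in both directions. Most calls in NASH against Control were rises, so these runs do not measure the error of the fits here. Per-mouse values are given for the 3 members of each class with the highest mean TPM (0.1 or more) and for each called member. For the lists, up to 3 called genes with the largest change are named per list. P4ha1, P4ha2, P4hb, Bmp1, Lama3, Nid2, Pdgfrb, Acta2 and Spp1 were added after their values were seen. Members, classes and lists were chosen with earlier results of these data known. GC box, CCAAT and TATAAA matches were counted on both strands.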

Additional observations from a re-analysis of the deposited data

How the results depend on the processing

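No paired analysis was possible because the groups held different mice, which the study placed in groups at random. No called direction was reversed under any alternative. For NASH against Control the count of called collagen genes stayed within 1.5 times of 16 under every alternative. For NASH+Exercise against NASH it was 0 in edgeR under every setting, 4 with DESeq2 and 2 with limma on log2(TPM + 1). For NASH+Exercise against Control it was 9, against 5 with limma and 14 with no fold limit. The list genes gave 7 calls with DESeq2 and 1 with limma for NASH+Exercise against NASH, and for NASH+Exercise against Control 21, against 9 with limma and 38 with no fold limit. With 1 mouse left out, the collagen counts ran from 14 to 17, 0 to 0 and 7 to 9 in the 3 comparisons, and the list counts from 31 to 38, 0 to 0 and 19 to 25. The causes of these shifts were not tested. Scaling by library size only moved the median over all genes (log2 fold change) from 0.01 to 0.36 for NASH against Control, from -0.03 to -0.23 for NASH+Exercise against NASH and from 0.00 to 0.15 for NASH+Exercise against Control, and that of the collagen genes to 1.73, -0.85 and 0.87. Medians were the same with genes at the floor of 3 reads set to their lower bounds. Those genes still lay above their medians at the bounds, which leaves a median in place, so this is no check on the medians. Depth limits the genes under 1 CPM, which rest on few reads.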
